A study of Mus musculus with 2 samples.

Results

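The signals by which natural killer (NK) cells call and keep type 1 conventional dendritic cells (cDC1) in a tumour are described here through 6 genes: Xcl1, Xcr1, Flt3l, Flt3, Crtam and Cadm1. They are 6 of the 31253 genes listed in each library and were found by symbol in both count tables. The genes were chosen with earlier values of these data in view, in which Xcl1 and Crtam were lower in NK cells of the ibudilast library. Those differences are therefore given as descriptions.

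The data are single-cell RNA counts of CD45-positive cells sorted from GL261 gliomas, a mouse glioma line grown inside the brains of C57BL/6 mice. In the ibudilast library the mice had received ibudilast, an inhibitor of phosphodiesterases and of the cytokine MIF, through gavage over 2 weeks, with 5 doses of 20 mg/kg in each week. The PBS library is labelled untreated, while its protocol names PBS given on the same schedule. All mice carried the tumour. The sources used here state neither the number of mice behind each library nor their age. With 1 library per group there is no test between treatments. Every ratio compares these libraries, and its 95% interval covers counting error alone, not the spread between cells or mice.

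XCL1 is a chemokine made by activated NK cells and CD8 T cells, and its receptor XCR1 is a hallmark of cDC1, the dendritic cells that take up dead tumour cells and show their antigens to CD8 T cells. FLT3 ligand, made by lymphocytes among other cells, binds FLT3 on dendritic cells and their precursors and keeps dendritic cells alive and dividing. CRTAM is an adhesion receptor that activated NK and CD8 T cells place on their surface, and it binds CADM1 (also called nectin-like 2), which cDC1 carry.

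Cells were assigned to 18 classes by marker genes that include none of the 6 members. After filtering, 6654 cells of the ibudilast library and 7666 of the PBS library were kept, with median depths of 7857 and 11659.5 UMIs (unique molecules counted once each). The NK gate held 292 ibudilast and 153 PBS cells, the CD8 T gate 421 and 235, and the cDC1 gate 133 and 99. All 7 check markers of the NK, CD8 T, cDC1 and migratory dendritic gates stood at least 3 times above the other gates in both libraries. The cDC2 gate met this for 3 of 7 markers in the ibudilast and 5 of 7 in the PBS library, and the plasmacytoid (pDC) gate for 4 of 6 in each. The label calls the sorted cells lymphocytes, but 31.1% of ibudilast and 47.6% of PBS cells fell in the macrophage gate. Cells with markers of more than 1 lineage, 18.6% of ibudilast and 17.8% of PBS cells, were kept apart. The libraries shared 19 cell barcodes.

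NK cells were a larger part of the sort in the ibudilast library, 4.39% of kept cells against 2.00% in the PBS library (ratio 2.20, 1.80 to 2.69). The share of cDC1 was 2.00% in the ibudilast and 1.29% in the PBS library (ratio 1.55, 1.18 to 2.03). For each cDC1 there were 2.20 NK cells (1.78 to 2.72) in the ibudilast library and 1.55 (1.19 to 2.01) in the PBS library, and these intervals overlap. CD8 T cells numbered 3.17 per cDC1 in the ibudilast and 2.37 in the PBS library. Such shares depend on what else the CD45 sort let through: the macrophage share was lower in the ibudilast library (ratio 0.653) and the microglia share lower still (ratio 0.148).

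**Figure D1:**
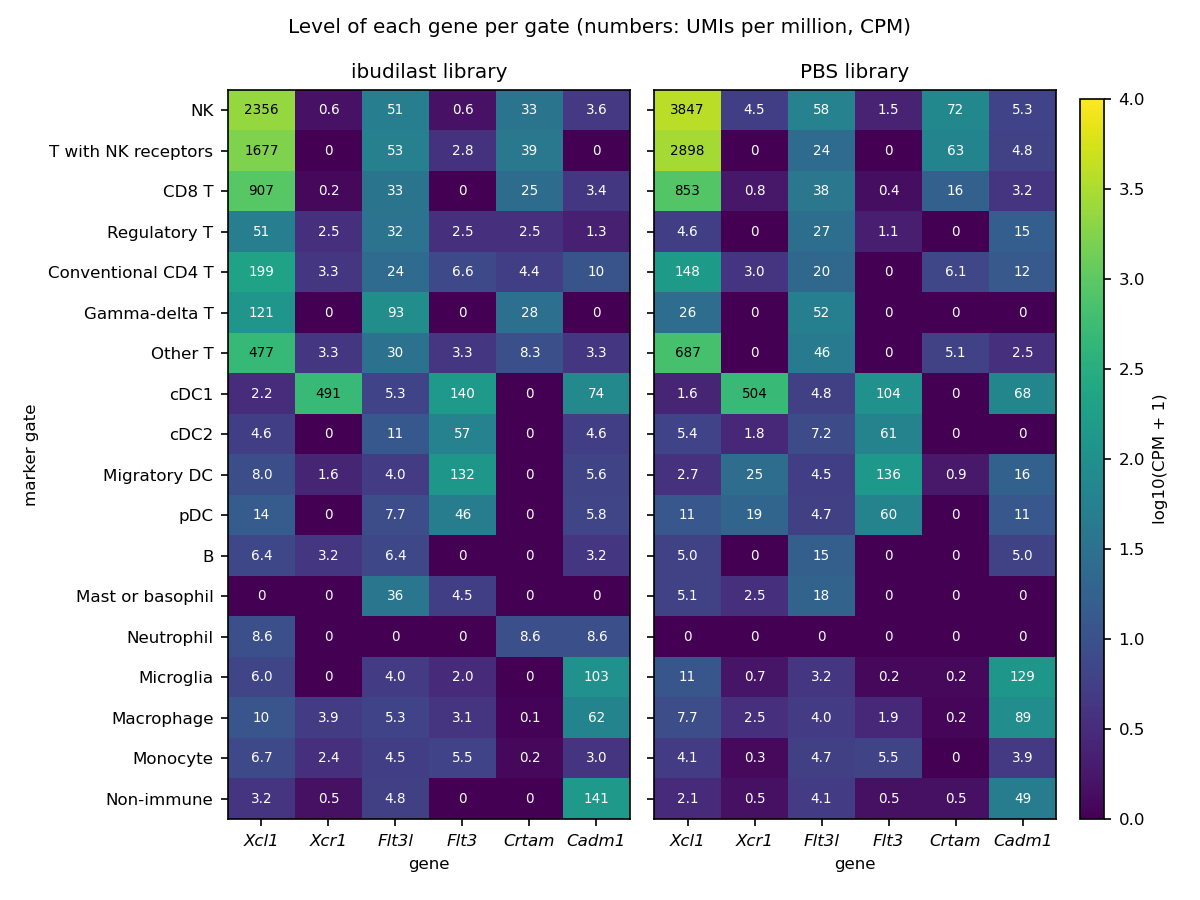
Level of the 6 genes (columns) in the 18 gates (rows), ibudilast library on the left and PBS library on the right; colour is log10(CPM + 1) and the printed numbers are CPM. Xcl1, Flt3l and Crtam have their highest levels in NK or T rows, but not in every T row. Crtam is at 2.55 CPM in ibudilast and 0 in PBS regulatory T cells, and at 4.43 and 6.09 CPM in conventional CD4 T cells. In the Other T row it is at 8.32 and 5.09 CPM, and in PBS gamma-delta T cells at 0. Xcl1 is at 4.56 CPM in PBS regulatory T cells, below the 7.73 CPM of PBS macrophages. Xcr1 fills the cDC1 row at 491 CPM in the ibudilast and 504 CPM in the PBS library. Flt3 fills the dendritic rows, and Cadm1 the cDC1, microglia, macrophage and non-immune rows.

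Xcl1 (ENSMUSG00000026573), which an antisense gene model (Gm20743) spans, lies on the minus strand at chr1:164931644-164935527 in mm10 (GENCODE M21), and Xcr1 (ENSMUSG00000060509), its receptor, on the minus strand at chr9:123852315-123862029. Their RefSeq promoters on GRCm38.p6, from 250 bases before to 50 after the gene start, are shown because the results turn first on this ligand and its receptor. Capitals in the Xcl1 promoter, chr1:164935473-164935772, mark letters of a RUNX motif (ACCACA, read forward) and of a T-box core (TCACAC, read on the other strand). Both sequences are written 5′ to 3′ on the strand of the gene.
Xcl1: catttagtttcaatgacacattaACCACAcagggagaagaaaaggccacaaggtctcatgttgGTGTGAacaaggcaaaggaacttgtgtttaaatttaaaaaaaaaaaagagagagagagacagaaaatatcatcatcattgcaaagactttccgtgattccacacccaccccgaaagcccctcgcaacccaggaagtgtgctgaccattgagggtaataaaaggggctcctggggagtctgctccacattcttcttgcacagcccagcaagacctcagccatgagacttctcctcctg
Xcr1: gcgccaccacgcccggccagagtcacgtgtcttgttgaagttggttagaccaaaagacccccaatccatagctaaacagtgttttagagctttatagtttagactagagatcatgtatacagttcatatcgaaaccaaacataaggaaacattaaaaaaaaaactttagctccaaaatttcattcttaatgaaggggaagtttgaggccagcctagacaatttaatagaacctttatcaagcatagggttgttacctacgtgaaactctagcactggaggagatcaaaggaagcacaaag
The Xcr1 promoter, chr9:123861980-123862279, held none of the 6 motifs searched on both strands. These were the pair above, AP-1 (TGANTCA), CRE (TGACGTCA), an NFAT core (GGAAAA) and the core of the interferon-stimulated response element. Of 32851 mouse promoters of this length, 16.8% hold the RUNX letters, 14.5% the T-box letters, 7.81% the AP-1, 1.79% the CRE, 23.4% the NFAT and 3.44% the interferon-response letters. Matches of this kind are descriptions of letters, not binding sites.

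By summed UMIs, NK cells had the highest Xcl1 level of the 18 gates in each library, and that level was lower in the ibudilast library. The NK gate held 3955 Xcl1 UMIs, or 2356 CPM (UMIs of the gene per 1000000 UMIs of the gate), in the ibudilast library and 5098 UMIs, or 3847 CPM, in the PBS library (ratio 0.612, 0.587 to 0.639). Summed this way, NK cells stood 1.40 (ibudilast) and 1.33 (PBS) times above the next gate, T cells that also carry NK receptors. These intervals of counting error did not overlap. By the median cell the order was the other way. T cells with NK receptors had medians of 831 CPM in the ibudilast and 2195 CPM in the PBS library, and NK cells 496 and 1550 CPM. No Xcl1 UMI was found in 6 of 35 ibudilast and 0 of 19 PBS T cells with NK receptors. At least 1 Xcl1 UMI was found in 67.8% of ibudilast NK cells (median depth 4721 UMIs) and in 85.0% of PBS NK cells (median depth 6857). With every cell thinned to 2000 UMIs, which left out 3 ibudilast and 1 PBS cell, the shares were 56.7% in the ibudilast and 73.0% in the PBS library. Macrophages, which are not a known source of Xcl1, had an Xcl1 UMI in 6.04% of ibudilast and 4.31% of PBS cells at median depths of 8007.5 and 12951 UMIs.

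Single NK cells differed widely in Xcl1. The median NK cell had 496 CPM in the ibudilast library and 1550 CPM in the PBS library, and the highest cells had 32544 CPM with ibudilast and 41428 CPM with PBS. No Xcl1 UMI was found in 94 of 292 ibudilast and 23 of 153 PBS NK cells. The tenth of NK cells with the most UMIs of the gene held 66.3% of its NK UMIs in the ibudilast and 61.6% in the PBS library. The cells of both libraries overlapped over nearly their whole range, with more ibudilast cells at 0.

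**Figure D2:**
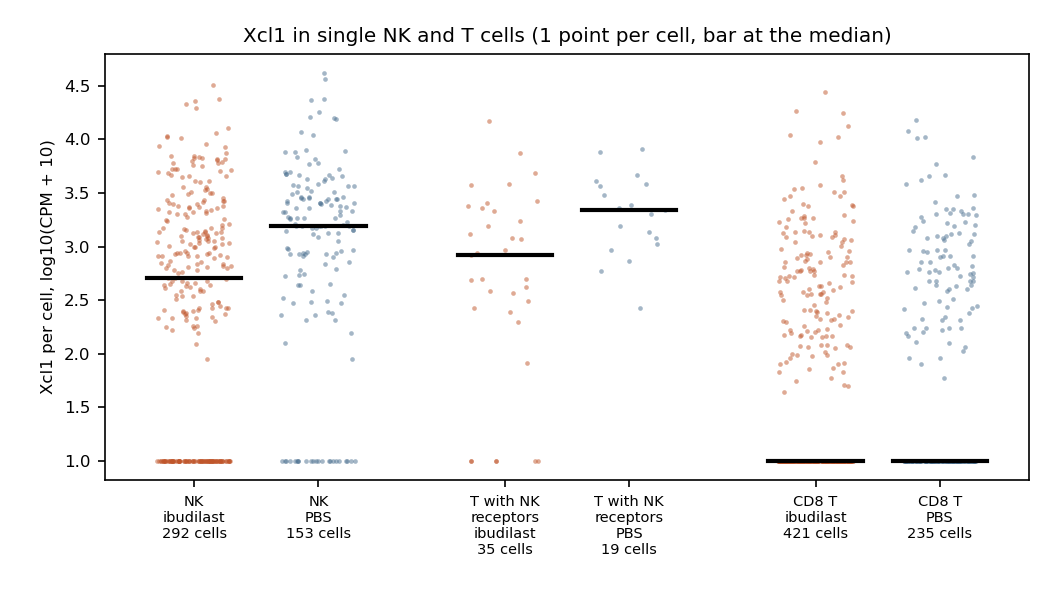
Xcl1 in single cells of 3 gates, ibudilast cells left of PBS cells in each pair; each point is 1 cell, the vertical axis is log10(CPM + 10), and bars mark medians. NK medians are 496 CPM in the ibudilast and 1550 CPM in the PBS library, and those of T cells with NK receptors 831 and 2195 CPM. The CD8 T medians are 0 in both.

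The Xcl1 ratio was below 1 in each of 4 parts of the NK gate. Xcl1 was picked for this contrast in the same cells, so these ratios are descriptions and no further support. NK cells were divided, in a step added after the values were seen, by UMIs of genes known from tissue-resident killer cells (Itga1, Cxcr6, Cd200r1, Tnfsf10) and from circulating mature NK cells (Itgam, Klrg1, S1pr5, Cx3cr1, Cma1). Cells with residency genes alone were 18.8% of the ibudilast and 34.0% of the PBS gate, and cells with circulation genes alone were 41.4% and 26.8%. In the residency part Xcl1 was at 2975 CPM in the ibudilast and 4868 CPM in the PBS library (ratio 0.611, 0.571 to 0.654). In the circulation part it was at 1735 CPM in the ibudilast and 2246 CPM in the PBS library (ratio 0.773, 0.695 to 0.860). Cells with both kinds of gene had a ratio of 0.610 and cells with neither of 0.778, and no interval reached 1. A single UMI placed a cell in a part, and each of these genes had between 13 and 130 UMIs per library in the gate. Median depth was lower in the ibudilast library in all 4 parts, for example 6331 against 9645.5 UMIs in the residency part. Cycling cells, with 2 or more UMIs of Mki67 and Top2a, made up 3.08% of ibudilast and 9.80% of PBS NK cells, and the ratio without them was 0.558. Haemoglobin RNA, a sign of red cell RNA, was at 466 CPM in the ibudilast and 15.8 CPM in the PBS NK gate, and summed macrophage markers were at 1736 CPM with ibudilast and 1749 CPM with PBS. The part of these, and of the differing shares of the 4 parts, in the Xcl1 ratio was not tested.

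**Figure D3:**
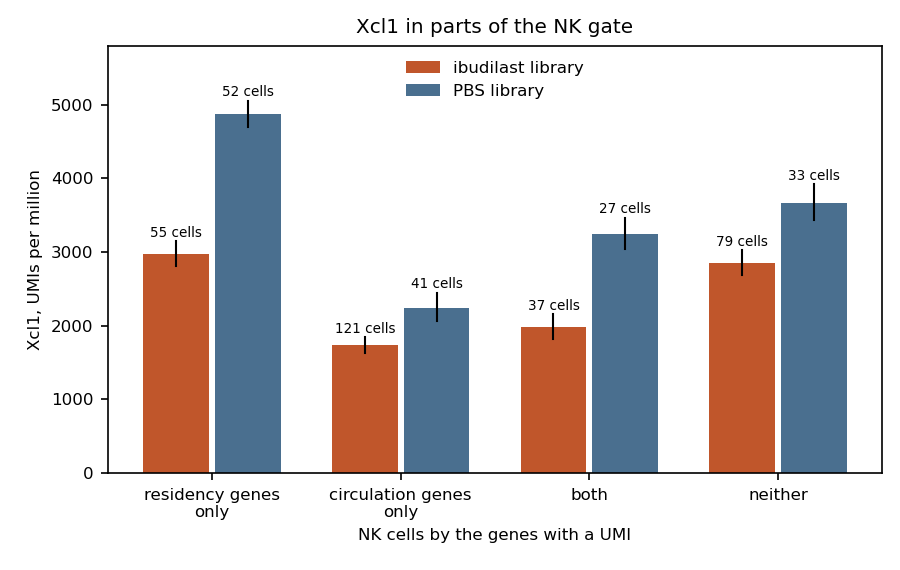
Xcl1 level (CPM) in 4 parts of the NK gate defined by residency and circulation genes, ibudilast bars left of PBS bars; lines are 95% Poisson intervals and numbers above the bars are cells. Every ibudilast bar is lower than its PBS bar, with ratios between 0.610 and 0.778.

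T gates together held 37.1% of all Xcl1 UMIs in the ibudilast and 24.0% in the PBS library. T cells with NK receptors, 35 ibudilast and 19 PBS cells, had 1677 CPM with ibudilast and 2898 CPM with PBS (ratio 0.579, 0.516 to 0.649). CD8 T cells had 4002 UMIs and 907 CPM in the ibudilast library and 2142 UMIs and 853 CPM in the PBS library (ratio 1.06, 1.01 to 1.12). No direction is given for the CD8 value, which turned under several settings. The tenth of CD8 T cells with the most UMIs held 88.8% of the ibudilast and 72.6% of the PBS UMIs, and 1 ibudilast cell alone had 630. The ratio was 0.828 with each cell weighted alike, 0.890 in cells thinned to 2000 UMIs, 0.988 without cycling cells, and 1.01 without the top cell of each library. The share of CD8 T cells with a UMI was 37.1% in the ibudilast and 43.8% in the PBS library. T cells of no finer class had 477 CPM with ibudilast and 687 CPM with PBS (ratio 0.695, 0.586 to 0.823). Conventional CD4 T cells had 199 CPM in the ibudilast and 148 CPM in the PBS library (ratio 1.35, 1.08 to 1.69), carried by 14 of 99 ibudilast and 15 of 115 PBS cells. Single cells held 65 of the 180 ibudilast and 94 of the 146 PBS UMIs, and in thinned cells the level was 92.8 CPM in the ibudilast and 132 CPM in the PBS library, so no direction is given. Regulatory T cells had 40 UMIs in the ibudilast library, 29 of them in 1 cell, and 4 in the PBS library. Dendritic gates stood between 1.59 and 13.5 CPM in either library.

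The ibudilast library held more Xcl1 in all, with a lower level in its NK cells and larger shares of NK and CD8 T cells. Over all kept cells Xcl1 was at 196 CPM in the ibudilast and 126 CPM in the PBS library (ratio 1.56, 1.52 to 1.59). NK cells contributed 56.2 of these CPM in the ibudilast library and 48.7 in the PBS library (ratio 1.15, 1.11 to 1.20), while CD8 T cells contributed 56.9 and 20.5 (ratio 2.78, 2.64 to 2.93). Counted per 1000 kept cells instead, Xcl1 in all was 2074 UMIs in the ibudilast and 1721 in the PBS library. On that base CD8 T cells contributed 601 UMIs in the ibudilast and 279 in the PBS library. The NK contribution was then 594 UMIs in the ibudilast and 665 in the PBS library, so its direction depends on the base. NK cells held 28.7% of all Xcl1 UMIs (27.9 to 29.4) in the ibudilast and 38.6% (37.8 to 39.5) in the PBS library. That gap depends on how cells are weighted: in thinned cells the shares were 46.1% in the ibudilast and 46.3% in the PBS library, and with each cell weighted alike 44.1% and 46.7%. CD8 T cells held 29.0% in the ibudilast and 16.2% in the PBS library. Cells of more than 1 lineage held a further 30.7% in the ibudilast and 32.7% in the PBS library. Most of these cells, 1004 of 1240 in the ibudilast and 918 of 1366 in the PBS library, had T or NK markers together with macrophage or monocyte RNA. Of cells with NK markers and fewer than 2 Cd3 UMIs, 151 of 443 in the ibudilast and 94 of 247 in the PBS library were set aside as mixed. Xcl1 in these mixed cells was 583 CPM in the ibudilast and 875 CPM in the PBS library.

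Xcr1 marked cDC1, and the interval of its ratio between the libraries held 1. The cDC1 gate held 1107 Xcr1 UMIs, 491 CPM (463 to 521), in the ibudilast library and 952 UMIs, 504 CPM (472 to 537), in the PBS library (ratio 0.975, 0.893 to 1.06). With mixed cells kept in the gate the ratio was 0.919 (0.846 to 0.998). A UMI was seen in 99 of 133 ibudilast cDC1 (median depth 16346) and in 69 of 99 PBS cDC1 (median depth 17813), and after thinning in 45.8% and 45.5%. CD8 T cells, which lack the receptor, had a UMI in 0.238% of ibudilast and 0.851% of PBS cells at median depths of 8306 and 8591. The next gate was 126 times lower than cDC1 in the ibudilast and 19.8 times lower in the PBS library. Xcr1 was the 1 member of the 6 whose highest gate was at least 3 times above the next in both libraries, a pattern met by 10.9% of all genes counted in the ibudilast and 10% in the PBS library.

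Summed macrophage markers in the cDC1 gate were at 1516 CPM in the ibudilast and 1965 CPM in the PBS library. Cells of more than 1 lineage held 25.9% of Xcr1 UMIs in the ibudilast and 30.5% in the PBS library. Among these, the cells with neither NK nor Cd3 markers were at 72.3 CPM in the ibudilast and 49.7 CPM in the PBS library. In the other gates Xcr1 was low. Migratory dendritic cells, which carry Ccr7 and leave for lymph nodes, had 2 Xcr1 UMIs in 168 ibudilast cells and 28 in 129 PBS cells, of which 19 sat in 1 cell. Plasmacytoid dendritic cells had 0 UMIs in the ibudilast library, under a floor of 3 UMIs or 5.79 CPM, and 12 in the PBS library, all in 1 cell. Macrophages had 3.89 CPM in the ibudilast and 2.52 CPM in the PBS library, with a UMI in 2.71% and 2.52% of cells. The cDC1 gate held 64.8% (62.5 to 67.1) of Xcr1 UMIs in the ibudilast and 56.3% (53.9 to 58.7) in the PBS library. On the scale of all UMIs of kept cells, cDC1 brought 15.7 Xcr1 CPM in the ibudilast and 9.10 in the PBS library (ratio 1.73, 1.58 to 1.89). The ratio of 1.55 in their share of cells has cells as its base. Per 1000 kept cells they brought 166 Xcr1 UMIs in the ibudilast and 124 in the PBS library. The size of this difference thus depends on the base.

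Flt3l (ENSMUSG00000110206, minus strand, chr7:45129788-45136432) was spread over NK and all T gates at a low level. NK cells had 85 UMIs and 50.6 CPM in the ibudilast library and 77 UMIs and 58.1 CPM in the PBS library (ratio 0.871, 0.633 to 1.20). CD8 T cells had 33.1 CPM with ibudilast and 37.8 CPM with PBS (ratio 0.875, 0.671 to 1.15), regulatory T cells 31.9 CPM with ibudilast and 27.3 CPM with PBS, and conventional CD4 T cells 24.4 CPM with ibudilast and 20.3 CPM with PBS. The highest value in the ibudilast library, 93.2 CPM in gamma-delta T cells, rests on 10 UMIs in 20 cells, against 51.6 CPM and 4 UMIs in 15 PBS cells. Mast cells or basophils had 35.9 CPM in the ibudilast and 17.7 CPM in the PBS library, from 8 and 7 UMIs. Each NK or T gate overlapped with the next one in the order of either library. Over longer steps NK cells stood above conventional CD4 T cells in both libraries, with intervals of 40.4 to 62.6 against 15.3 to 36.9 CPM in the ibudilast library and 45.9 to 72.6 against 12.4 to 31.4 CPM in the PBS library. Macrophages and all dendritic gates were between 3.99 and 11.5 CPM. Even so, the macrophage gate, of 2068 ibudilast and 3646 PBS cells, held 11.5% of Flt3l UMIs in the ibudilast and 23.3% in the PBS library. NK cells held 9.32% in the ibudilast and 8.75% in the PBS library, and the T gates together 26.3% and 18.9%. Cells of more than 1 lineage held 41.4% in the ibudilast and 36.6% in the PBS library. Flt3l shares its strand and part of its span with the gene model Gm45713, which had 0 UMIs in the NK, CD8 T, cDC1 and macrophage gates, and the sources used here do not say how reads common to both were counted.

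Flt3 (ENSMUSG00000042817, minus strand, chr5:147330741-147400489) was carried by all 4 dendritic gates. In cDC1 it was at 140 CPM (316 UMIs) in the ibudilast and 104 CPM (197 UMIs) in the PBS library (ratio 1.35, 1.12 to 1.62). Thinned to 2000 UMIs per cell, the cDC1 ratio was 0.957, and the share of cDC1 with a UMI was 23.7% in the ibudilast and 23.2% in the PBS library, so no direction is given. Migratory dendritic cells had 132 CPM with ibudilast and 136 CPM with PBS (ratio 0.966, 0.769 to 1.21), the cDC2 gate 57.4 CPM with ibudilast and 61.0 CPM with PBS (ratio 0.942), and pDC 46.3 CPM with ibudilast and 59.9 CPM with PBS (ratio 0.773, 0.444 to 1.32). cDC1 and migratory cells overlapped in each library, and both stood above cDC2 and pDC. An antisense gene model at the start of Flt3, Gm26597, had 11 UMIs in ibudilast and 8 in PBS cDC1. Cells outside every gate held 18.4% of Flt3 UMIs in the ibudilast and 17.4% in the PBS library, spread over 105 and 99 cells.

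The receptors were read together in single cells. Xcr1 and Flt3 were both seen in 87 of 133 ibudilast cDC1 (65.4%) and 54 of 99 PBS cDC1 (54.5%). All 3 of Xcr1, Flt3 and Cadm1 were seen in 48 ibudilast (36.1%) and 36 PBS cells (36.4%), and none of them in 18 and 13. Migratory dendritic cells instead showed Flt3 in 98 of 168 ibudilast and 76 of 129 PBS cells, with Xcr1 in 2 and 8. A gene missed in a cell may be unread rather than absent. No Xcr1 UMI was found in 34 ibudilast and 30 PBS cDC1, while the median cDC1 had 5 and 7. Exactly 2 cDC1 marker UMIs, the gate limit, were found in 31 ibudilast and 21 PBS cells of that gate. Whether the gate also took in other cells was not tested.

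Crtam (ENSMUSG00000032021, minus strand, chr9:40969691-41004628) was highest in NK cells and in T cells with NK receptors, and in NK cells its level was lower in the ibudilast library. In the PBS library the intervals of both gates lay above that of CD8 T cells. The ibudilast library does not settle the order. Its intervals overlapped for T cells with NK receptors (21.5 to 66.1 CPM), NK cells (25.2 to 43.3), gamma-delta T cells (5.77 to 81.7, from 3 UMIs) and CD8 T cells (20.5 to 30.1). NK cells had 56 Crtam UMIs and 33.4 CPM in the ibudilast library and 95 UMIs and 71.7 CPM in the PBS library (ratio 0.465, 0.328 to 0.654). A UMI was seen in 29 of 292 ibudilast and 35 of 153 PBS NK cells, and after thinning in 5.19% and 7.24% (ratio of thinned levels 0.468, 0.223 to 0.971). In the 4 parts of the NK gate the Crtam ratio was 0.421 (0.233 to 0.723) with residency genes alone, 0.639 (0.226 to 1.94) with circulation genes alone and 0.183 (0.0598 to 0.477) with neither. With both kinds of gene it lay on the other side, at 78.9 CPM in the ibudilast and 36.5 CPM in the PBS library (ratio 2.16, 0.974 to 5.14), from 21 and 10 UMIs. Macrophages had a Crtam UMI in 2 of 2068 ibudilast and 8 of 3646 PBS cells, at the depths given above. In CD8 T cells the ratio lay on the other side, at 24.9 CPM (110 UMIs) in the ibudilast and 15.9 CPM (40 UMIs) in the PBS library (ratio 1.57, 1.08 to 2.31). The CD8 ratio was 0.977 (0.383 to 2.69) after thinning, where 10 ibudilast and 8 PBS cells had a UMI, and 1.46 (0.984 to 2.21) without the top cell of each library. T cells with NK receptors had 39.4 CPM with ibudilast and 62.9 CPM with PBS. Crtam was at 0 UMIs in cDC1 of both libraries, under floors of 1.33 CPM in the ibudilast and 1.59 CPM in the PBS library. Cells of more than 1 lineage held 37.7% of Crtam UMIs in the ibudilast and 40.3% in the PBS library.

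Within NK cells, Crtam lay with Xcl1. NK cells above their library's median Xcl1 had 51.0 Crtam CPM (37.9 to 67.3) in the ibudilast and 112 CPM (89.4 to 139) in the PBS library. NK cells at or below it had 8.59 CPM with ibudilast and 20.5 CPM with PBS. The cells above the median were also deeper, with median depths of 5710.5 against 4463.5 UMIs in the ibudilast library and 9125.5 against 5067 in the PBS library. In CD8 T cells the values above and at or below the median were 36.8 and 13.4 CPM in the ibudilast library and 18.6 and 12.5 CPM in the PBS library.

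Of the 6 members, 3 had at least 50 UMIs in the NK gate, the minimum set for counting a gene as past 1.5-fold or not: Xcl1, Flt3l and Crtam. Of these, 2 were 1.5-fold or more lower in the ibudilast library and 0 were higher. Over all 5804 genes counted in that gate, 5.67% were that much lower and 7% that much higher. Since Xcl1 and Crtam were picked for this contrast, nothing is read from the count. In CD8 T cells 1 of 3 members counted was higher and 0 lower, where 3.33% and 1.94% of 8100 genes were. Of 3 members counted in cDC1 0 passed in either direction, where 4.95% of 6264 genes were higher and 2.54% lower. Xcl1 alone was counted in conventional CD4 T cells and lay within 1.5-fold, where 6.14% of genes were higher and 3.73% lower. Flt3 alone was counted in the other dendritic gates and lay within 1.5-fold in each. The background was 4.92% higher and 8.52% lower in cDC2, 6.24% and 3.47% in pDC, and 4.98% and 3.7% in migratory dendritic cells.

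**Figure D4:**
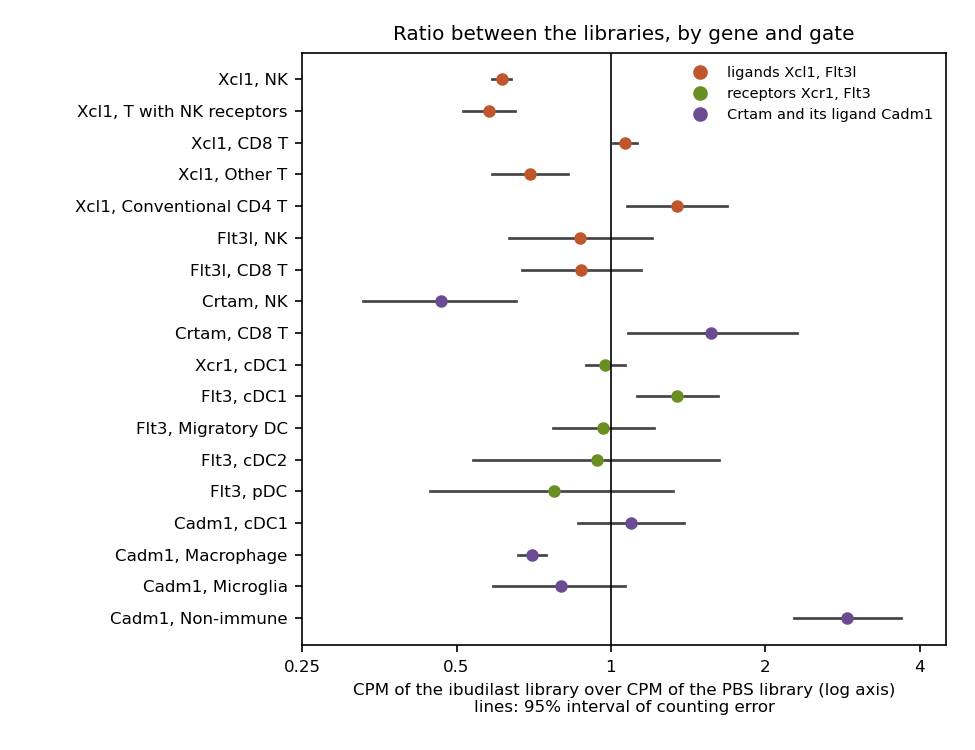
Ratio of the ibudilast over the PBS library for each gene in the gates that carry it, on a log axis; points are ratios of CPM and lines are 95% intervals of counting error. Xcl1 and Crtam in NK cells lie left of 1 at 0.612 and 0.465, Xcr1 in cDC1 at 0.975, and Cadm1 in non-immune cells right of 1 at 2.88.

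Cadm1 (ENSMUSG00000032076, plus strand, chr9:47530173-47857637), the partner of Crtam, was not confined to cDC1. In cDC1 it was at 74.1 CPM (167 UMIs) in the ibudilast and 67.7 CPM (128 UMIs) in the PBS library (ratio 1.09, 0.864 to 1.39), with a UMI in 57 of 133 ibudilast and 44 of 99 PBS cells. In CD8 T cells, which are shallower, a Cadm1 UMI was seen in 13 of 421 ibudilast and 8 of 235 PBS cells. Macrophages had 62.4 CPM (1237 UMIs) in the ibudilast and 89.0 CPM (4512 UMIs) in the PBS library (ratio 0.702, 0.658 to 0.747). Microglia had 103 CPM with ibudilast and 129 CPM with PBS (ratio 0.800, 0.590 to 1.06). In that gate, of 31 ibudilast and 242 PBS cells, 1 of 2 members counted was 1.5-fold or more lower, Xcl1 on 3 and 47 UMIs (ratio 0.549, 0.109 to 1.71), where 7.87% of genes were higher and 9.67% lower. The non-immune gate, which held 112 ibudilast and 60 PBS cells in spite of the CD45 sort, had 141 CPM in the ibudilast and 48.8 CPM in the PBS library (ratio 2.88, 2.27 to 3.68). In that gate 17.8% of all genes were 1.5-fold or more higher and 9.09% lower. The cDC2 gate had 4.59 CPM in the ibudilast library and 0 UMIs in the PBS library, under a floor of 5.38 CPM. Migratory dendritic cells had 5.59 CPM with ibudilast and 16.4 CPM with PBS, from 7 and 18 UMIs.

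Among the 18 gates, macrophages held the largest share of Cadm1 UMIs in both libraries. The macrophage and microglia gates together held 40.5% in the ibudilast and 68.7% in the PBS library, and the cDC1 gate held 5.25% and 1.73%. Cells of more than 1 lineage, outside these gates, held 42.3% in the ibudilast and 26.5% in the PBS library. Among gated UMIs alone, macrophages with microglia held 72.3% in the ibudilast and 94.3% in the PBS library, and cDC1 9.37% and 2.38%. Over all kept cells Cadm1 was at 45.2 CPM in the ibudilast and 70.6 CPM in the PBS library (ratio 0.641), with fewer macrophages in the ibudilast library as given above. Per 1000 kept cells there were 478 Cadm1 UMIs in the ibudilast and 963 in the PBS library. On the scale of all UMIs of kept cells, cDC1 brought 2.37 Cadm1 CPM in the ibudilast and 1.22 in the PBS library (ratio 1.94, 1.53 to 2.46). Per 1000 kept cells they brought 25.1 Cadm1 UMIs in the ibudilast and 16.7 in the PBS library.

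**Figure D5:**
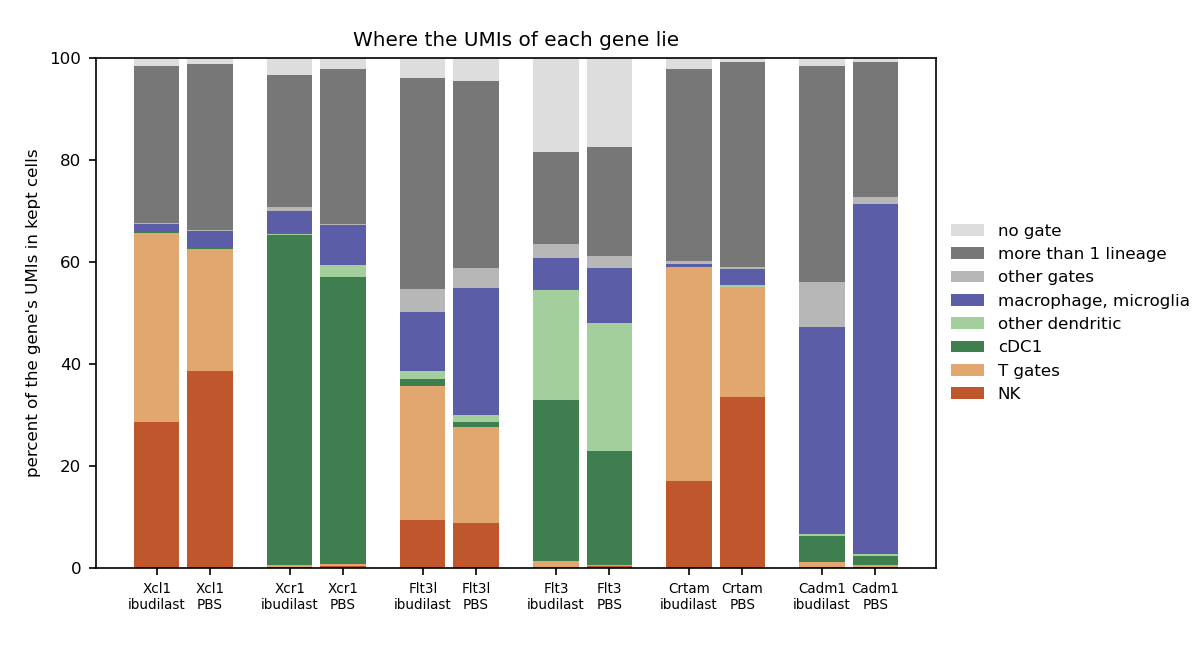
Where the UMIs of each gene lie among kept cells, in percent, ibudilast bar left of PBS bar for each gene; colours are gate classes, with cells of more than 1 lineage in dark grey. NK cells hold 28.7% of Xcl1 in the ibudilast and 38.6% in the PBS library (46.1% and 46.3% in thinned cells), cDC1 hold 64.8% and 56.3% of Xcr1, and macrophages with microglia hold 40.5% and 68.7% of Cadm1. Cells of more than 1 lineage hold 42.3% of Cadm1 in the ibudilast and 26.5% in the PBS library.

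In the macrophage gate, where lymphocyte and cDC1 genes are read at trace levels, 2 of 5 members counted were 1.5-fold or more higher in the ibudilast library, Xcr1 (ratio 1.54) and Flt3 (3.08 against 1.85 CPM, ratio 1.66). There 5.33% of 11474 genes were higher and 1.89% lower. NK markers in macrophages were at 15.5 CPM in the ibudilast and 5.76 CPM in the PBS library, and Xcl1 at 10.2 CPM with ibudilast and 7.73 CPM with PBS, 132 of its 392 PBS UMIs in 1 cell. The part of free RNA in these values was not tested.

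Several other chemokines and cytokines of NK cells were higher in the ibudilast library. Of 8 listed genes 7 had 50 UMIs in the NK gate, 4 were 1.5-fold or more higher in the ibudilast library and 1, Xcl1, was lower. Their median log2 ratio was 1.03, against 0.0091 over all genes of the gate. Of all genes there 7% were that much higher and 5.67% that much lower. Xcl1 had been picked for this contrast. Ccl5, which draws T cells and dendritic cells, was at 9206 CPM in the ibudilast and 3356 CPM in the PBS library (ratio 2.74, 2.65 to 2.84). Ccl4 was at 1638 CPM with ibudilast and 737 CPM with PBS (ratio 2.22) and Ccl3 at 649 CPM with ibudilast and 281 CPM with PBS (ratio 2.31), both of them chemokines of killer cells. Ifng, interferon gamma, was at 497 CPM in the ibudilast and 242 CPM in the PBS library (ratio 2.05, 1.80 to 2.34). Of the same 8 genes 0 in CD8 T cells passed 1.5-fold, with a median log2 ratio of 0.054 against 0.016 over all genes. Of all genes in CD8 T cells 3.33% were higher and 1.94% lower. Ccl5 was at 4049 CPM with ibudilast and 4233 CPM with PBS there.

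Genes that go with recent activation split in NK cells. Of 13 listed, 11 were counted, 2 were 1.5-fold or more higher in the ibudilast library and 4 lower, with a median log2 ratio of -0.0026. Over all genes of the gate 7% were higher and 5.67% lower, with a median of 0.0091. Xcl1 and Crtam, picked for this contrast, are among the 4 lower, so nothing is read from the count. Beside Xcl1 and Crtam the lower ones were Gzmc, a granzyme, at 789 CPM in the ibudilast and 3279 CPM in the PBS library (ratio 0.241), and the chemokine Ccl1 at 24.4 CPM with ibudilast and 472 CPM with PBS (ratio 0.0518). The higher ones were the nuclear receptors Nr4a1 (ratio 1.69) and Nr4a2 (1.51), which T and NK cells switch on after receptor signals; these and Ccl1 were named after their values were seen. Cd69, an early activation marker, was at 821 CPM in the ibudilast and 716 CPM in the PBS library (ratio 1.15), and Egr1 at 500.4 CPM with ibudilast and 371 CPM with PBS (ratio 1.35). Of 12 counted in CD8 T cells 1 was higher, Crtam, and 3 were lower: Gzmc (ratio 0.354), Ccl1 (0.615) and Egr3 (0.405), the last pair named after their values were seen. Of all genes in CD8 T cells 3.33% were higher and 1.94% lower.

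On the receiving side, most receptor genes of cDC1 lay within 1.5-fold, as did most genes of that gate. Nothing is therefore read from the counts within 1.5-fold given here. Of 8 receptors for these signals, all counted in cDC1, 1 was 1.5-fold or more lower in the ibudilast library and 0 were higher. Their median log2 ratio was -0.034, against 0.053 over all genes. Of all genes in cDC1 2.54% were that much lower and 4.95% that much higher. The GM-CSF receptor chains Csf2ra (200.1 CPM in the ibudilast and 209.5 CPM in the PBS library) and Csf2rb (174 CPM with ibudilast and 178 CPM with PBS) had ratios of 0.955 and 0.978, and the interferon gamma receptor chains Ifngr1 and Ifngr2 0.874 and 1.26. The lower one was Ccr1, a receptor of Ccl3 and Ccl5, at 30.6 CPM with ibudilast and 54.5 CPM with PBS (ratio 0.562, 0.408 to 0.769), named after its values were seen. In migratory dendritic cells 5 of these receptors were counted and all lay within 1.5-fold. Their median log2 ratio was -0.040, against 0.019 over all genes, of which 4.98% were higher and 3.7% lower. All 12 genes of the cDC1 programme lay within 1.5-fold, as did most genes of the cDC1 gate, with a median log2 ratio of 0.0021. Among them Irf8, the factor cDC1 depend on, was at 2241 CPM in the ibudilast and 1771 CPM in the PBS library (ratio 1.27), and Id2 at 1480 CPM with ibudilast and 1470 CPM with PBS (ratio 1.01). Clec9a and Tlr3 of that list were also gate genes.

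Some signals that dendritic cells send back were lower in the ibudilast library. Of 7 counted in cDC1, 2 were 1.5-fold or more lower in the ibudilast library and 0 higher, with a median log2 ratio of -0.21. Over all genes of the gate 2.54% were lower and 4.95% higher, with a median of 0.053. The lower ones were Cxcl10, which draws Cxcr3-bearing T and NK cells, at 183 CPM in the ibudilast and 312 CPM in the PBS library (ratio 0.586, 0.515 to 0.665), and Ccl17 at 54.6 CPM with ibudilast and 153 CPM with PBS (ratio 0.356). Cxcl9, a ligand of the same receptor as Cxcl10, was at 1293 CPM in the ibudilast and 1075 CPM in the PBS library (ratio 1.20). In migratory dendritic cells 4 of 8 counted were lower and 0 higher, where 3.7% of 4376 genes were lower and 4.98% higher, with a median log2 ratio of -0.37. The lower ones were Ccl22 (698 CPM in the ibudilast and 1338 CPM in the PBS library, ratio 0.522) and Ccl17 (221 CPM with ibudilast and 558 CPM with PBS, ratio 0.396), ligands of Ccr4, Il12b (197 CPM with ibudilast and 335 CPM with PBS, ratio 0.588), a subunit of IL-12, and Cxcl10 (ratio 0.640), the last named after its values were seen. The rest lay within 1.5-fold. Cxcl16 was at 1072 CPM in the ibudilast and 869 CPM in the PBS library (ratio 1.23, 1.13 to 1.34), and Cxcl9 had a ratio of 0.931 (0.842 to 1.03). Il15 had a ratio of 1.27 (0.952 to 1.70) and Il15ra of 1.15 (0.946 to 1.40), both named after their values were seen. In cDC1 Il12b lay under the minimum of 50 UMIs and on the other side, with 40 UMIs and 17.7 CPM in the ibudilast and 6 UMIs and 3.17 CPM in the PBS library (ratio 5.59, 2.36 to 16.1). In macrophages 1 of 9 was higher and 2 lower, where 5.33% of all genes were higher and 1.89% lower. Ccl17 there was at 4.29 CPM in the ibudilast and 22.2 CPM in the PBS library (ratio 0.193), Ccl22 had a ratio of 0.613 and Il12b of 2.28, the last pair named after their values were seen.

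The receptors for those signals on NK cells were mixed. Of 8 counted, 3 were 1.5-fold or more higher in the ibudilast library and 1 lower, with a median log2 ratio of -0.067. Over all genes of the gate 7% were higher and 5.67% lower, with a median of 0.0091. Higher were the IL-18 receptor chains Il18rap (179 CPM in the ibudilast and 108 CPM in the PBS library, ratio 1.66) and Il18r1 (159 CPM with ibudilast and 104 CPM with PBS, ratio 1.53), and Il12rb2 of the IL-12 receptor (54.8 CPM with ibudilast and 36.2 CPM with PBS, ratio 1.51, named after its values were seen). Lower was Cxcr6, receptor of Cxcl16, at 29.8 CPM in the ibudilast and 68.7 CPM in the PBS library (ratio 0.434, 0.301 to 0.619). Il2rb, which NK cells use for IL-15, was at 813 CPM with ibudilast and 852 CPM with PBS (ratio 0.954). In CD8 T cells 0 of 8 were higher and 1 lower, Il12rb2 (ratio 0.644), also named after its values were seen. Of all genes in CD8 T cells 3.33% were higher and 1.94% lower.

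Among the nectin and nectin-like genes and their lymphocyte receptors, 3 were counted in NK cells, 2 were lower in the ibudilast library and 0 higher, with a median log2 ratio of -0.77, where 5.67% of all genes were lower, 7% higher and the median was 0.0091. Crtam, picked for this contrast, is among them. Beside Crtam the lower one was Cd226, an activating receptor, at 74.5 CPM in the ibudilast and 127 CPM in the PBS library (ratio 0.587, 0.462 to 0.745). Cd96, a receptor of the same ligand family, was at 44.7 CPM with ibudilast and 65.7 CPM with PBS (ratio 0.681). In CD8 T cells 1 of 4 was higher, Crtam, and 0 lower, where 3.33% of all genes were higher and 1.94% lower. The median log2 ratio of the list was 0.086, and Cd226 was at 146 CPM in the ibudilast and 162 CPM in the PBS library (ratio 0.903). In cDC1 Cadm1 and Nectin1 were the 2 genes with 50 UMIs, and neither passed 1.5-fold. Of 6 counted in macrophages 0 were lower and 1 was higher, Cd226 at 1.51 CPM in the ibudilast and 0.730 CPM in the PBS library (named after its values were seen). The median log2 ratio of the list there was 0.020, against 0.032 over all genes, of which 1.89% were lower and 5.33% higher. In non-immune cells 3 of 6 were higher, Cadm1, Cadm4 (ratio 1.72) and Cadm2 (ratio 1.62), and 0 lower. The median log2 ratio of the list there was 0.59, against 0.047 over all genes, of which 17.8% were higher and 9.09% lower.

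The genes whose levels ran most alike with each member were ranked by Pearson's r of log2(CPM + 10) over 32 points, 16 gates in 2 libraries, among 10937 genes outside the gate markers. The points share libraries and gates, and genes that mark 1 gate reach a high r with each other. For Xcl1 they were the killer-cell receptors Klrc2 (0.978), Cd160 (0.961) and Klre1 (0.948). For Crtam they were Styk1 (0.933), Gzmc (0.924) and Klrc2 (0.909). For Xcr1 they were Gpr141b (0.981), Tlr11 (0.950) and Fndc5 (0.945), and for Flt3 Slc46a3 (0.924), Zbtb46 (0.902), a factor of conventional dendritic cells, and Syngr2 (0.894). Flt3l ran with Gm19585, Nlrc3 and Gzmb (0.930 each). Cadm1 had the lowest values, with Gatm (0.866), D5Ertd605e (0.849) and Zfp111 (0.823).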

How the data were processed

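Each group is 1 library of CD45-positive cells prepared with the 10x Genomics 3′ v3.1 kit, per the labels' protocols. The authors deposited raw UMI counts per gene and barcode, which the file headers credit to Cell Ranger 6.1.1 and the submitters' processing notes place on mm10. Totals were 82196922 UMIs in 8483 barcodes (ibudilast) and 119113794 in 8968 (PBS). Cells were kept with at least 300 genes, 500 UMIs and under 10% mitochondrial UMIs, which left out more ibudilast barcodes (15.6% over the mitochondrial limit) than PBS ones (8.93%). Scrublet in scanpy 1.11.5 marked 0 cells in each library, so the 6% with the highest scores, 425 ibudilast and 489 PBS cells, were left out.

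A gate needed 2 UMIs over its markers. Cells with C1q genes at 3000 CPM or more and lymphocyte or dendritic markers, or lymphocytes with Lyz2 at 3000 CPM, were set aside as more than 1 lineage; these limits were set after marker levels were seen. Exactly 2 NK marker UMIs were found in 41 ibudilast and 19 PBS cells of the NK gate. UMIs were summed per gate and scaled to its total (CPM). Sums have exact Poisson, shares exact Clopper-Pearson and ratios exact conditional binomial 95% intervals (scipy 1.17.1), tested on simulated data. Genes past 1.5-fold needed 50 UMIs over both libraries, and their ratios and list medians had 0.5 UMIs added. Named genes were the 6 members, up to 5 genes of each list with the most UMIs in the gate, and 3 like genes per member; others are called named after their values were seen. The members and lists were chosen with earlier results of these data known. Promoters (RefSeq, GRCm38.p6) matched 4 of the 6 members.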

Additional observations from a re-analysis of the deposited data

Results flagged for a closer look

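9 ratios stood out because a gene was higher in the ibudilast library in 1 of the 18 gates and lower in another, each with 50 UMIs or more, a ratio of at least 1.25-fold and an interval that did not reach 1. The differences between gates were not tested, since each group has 1 library. Xcl1 was lower in NK cells of the ibudilast library (ratio 0.612), in T cells with NK receptors (0.579) and in T cells of no finer class (0.695). Its ratio was above 1 in conventional CD4 T cells (1.35) and macrophages (1.33). In conventional CD4 T cells 1 PBS cell held 94 of the 146 UMIs, and thinned levels lay the other way, at 92.8 CPM in the ibudilast and 132 CPM in the PBS library. Crtam was lower in NK cells (0.465) and had a ratio above 1 in CD8 T cells (1.57), which was 0.977 in thinned cells and 1.46 (0.984 to 2.21) without the top cell of each library. Cadm1 was lower in macrophages (0.702) and higher in non-immune cells (2.88).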

How the results depend on the processing

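No paired analysis was possible because each group has 1 library. Over 15 results and 11 alternatives, 3 of them added after seeing the data, 151 values were recomputed: 110 stayed within the interval of the reported value without a turn of a called direction, 36 moved beyond it and 5 turned a direction whose interval was clear of 1. In all 9 ratios came to lie on the other side of 1, the further 4 for Cadm1 in cDC1, whose reported interval holds 1 (0.989 with mixed cells kept, 0.756 thinned, 0.882 without cycling cells and 0.993 with the lower C1q limit). The Xcl1 ratio in NK cells stayed below 1 throughout. It was 0.663 with mixed cells kept, 0.584 with each cell weighted alike, 0.580 in cells thinned to 2000 UMIs, 0.558 without cycling cells, 0.539 with a C1q limit of 1500 CPM and 0.551 with 6000 CPM. Without cycling cells the Crtam ratio in NK cells was 0.316. Thinning gave 0.617 for Flt3l in NK cells and 0.655 for Cadm1 in macrophages, and turned the direction for Crtam in CD8 T cells (0.977) and Flt3 in cDC1 (0.957). The Xcl1 ratio in CD8 T cells turned to 0.828 weighted alike, 0.890 thinned and 0.988 without cycling cells, and was 1.01 without the top cell. The cause of these turns was not tested.

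Shares moved most. The NK share of Xcl1 UMIs, 28.7% in the ibudilast and 38.6% in the PBS library, was 25.0% and 34.0% with doublets kept, 32.4% and 41.3% with mixed cells kept, 44.1% and 46.7% weighted alike, 46.1% and 46.3% thinned, 40.7% and 47.9% without cycling cells, 23.4% and 33.8% with the lower C1q limit and 30.2% and 44.3% with the higher. The cDC1 share of Xcr1 UMIs was 58.5% in the ibudilast and 49.6% in the PBS library with doublets kept, 67.9% and 67.8% with mixed cells kept, 58.6% and 52.6% weighted alike, 56.0% and 51.0% with the lower C1q limit, 70.4% and 65.7% with the higher, and 58.9% in the PBS library without cycling cells. The Xcr1 ratio in cDC1 with mixed cells kept was 0.919 (0.846 to 0.998), the 1 setting with an interval that did not hold 1. Depth limits genes of few UMIs: Crtam, Flt3l and Cadm1 rest on 40 to 167 UMIs a library in the NK, CD8 T and cDC1 gates that carry them, and on at most 25 in the smaller T and dendritic gates.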
